A study of Arabidopsis thaliana with 4 samples.

Results

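Among the 25665 Arabidopsis genes on the array, 43 were detected only in seedlings that overexpress ERF4, in the sense that their signal passed the scanner's level for a spot well above background in the AtERF4-HA channel on all 4 arrays and in the control channel on none. ERF4 is an ethylene response factor of the repressor class that carries an EAR motif. The seedlings were 14-day-old whole Columbia-0 plants carrying 35S:AtERF4-HA, compared with seedlings of the same age and ecotype carrying 35S:NLS-GFP-HA, a tagged nuclear green fluorescent protein. Both transgenes are driven by the constitutive 35S promoter and both proteins have an HA tag, so tag and promoter are shared. No treatment was given, and each replicate had its transgenic and control plants side by side on a single plate of MS agar with 0.5% sucrose at 23 degrees Celsius, in 16 h light and 8 h dark. The labels do not give the number of transgenic lines or of plants in a replicate. The 4 biological replicates each filled 1 array with 2 colours, AtERF4-HA RNA being green (Cy3) on arrays 1 and 2 and red (Cy5) on arrays 3 and 4. Nothing beyond the shared plate ties the replicates to separate experiments, so the errors below rest on these 4 arrays. They are limma's moderated SE after a dye term. They draw on the spread of all genes, leave out the difference between dyes, and are not the plain spread of the 4 ratios.

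These 43 genes were chosen by the same flags and signals that are described below, so their higher signal in AtERF4-HA is no finding. Among those named in RefSeq, the largest fitted log2 ratios were those of HAK5, a high-affinity potassium transporter (1.82), NRT2.1, a high-affinity nitrate transporter (1.02), GLIP4, a lipase (0.73), and AMT1;5, an ammonium transporter (0.72), in the repaired fit described below. A glycerol-3-phosphate permease (G3Pp2), an enzyme of ethylene synthesis (ACS4), a cold-response transcription factor (CBF1), a repressor of auxin response (IAA20) and an auxin-responsive SAUR gene (SAUR10) were also among them. As background, root plasma membranes take up scarce potassium, nitrate and ammonium through high-affinity carriers. The transcripts of HAK5, NRT2.1 and several AMT1 genes are known to rise when their substrate runs short. ERF proteins bind GCC-box promoter elements, and the EAR motif recruits corepressors.

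Ratios are directed by the labelled dyes. By them the authors' deposited value table runs from control to AtERF4-HA on all 4 arrays, while the sample titles put AtERF4-HA over control. If the dye labels were exchanged, the 43 genes would be those detected only in the control. ERF4 itself (AT3G15210) had 1616.3, 1669.8, 3415.0 and 3342.3 scanner units above background in AtERF4-HA on arrays 1 to 4 and 2118.5, 1829.3, 872.9 and 766.9 in control. The red signal was thus the higher on every array, and within each dye AtERF4-HA in green (1616.3 and 1669.8) was above control in green (872.9 and 766.9) and AtERF4-HA in red above control in red. After normalization between the dyes, with a repair of the background correction described below, its log2 ratios of AtERF4-HA over control were 1.08, 0.87, 0.89 and 1.04. The fitted ratio was 0.93 ± 0.07 (SE, n = 4 arrays, limma adjusted p = 0.0028) without that repair and 0.97 ± 0.07 with it (limma adjusted p = 0.00016).

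The number of genes depended on array 1. With that array left out and the flags asked of the other arrays, 122 genes were detected only in AtERF4-HA seedlings, against 49, 51 and 51 when array 2, 3 or 4 was left out. The opposite pattern, detection in the control on all arrays and in AtERF4-HA on none, was met by 121 genes with all arrays and by 124, 160, 166 and 165 when array 1, 2, 3 or 4 was left out. Over all genes the 43 are 0.168% and the 121 are 0.471%. On array 1 the flag was raised at a dye-normalized signal of 31.0 in the AtERF4-HA channel and of 19.5 in the control channel. On the other arrays the 2 channels had nearer levels, 21.0 to 22.3 in AtERF4-HA and 23.3 to 26.6 in control. The level in AtERF4-HA was thus the higher on array 1 and the lower on arrays 2, 3 and 4.

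**Figure D1:**
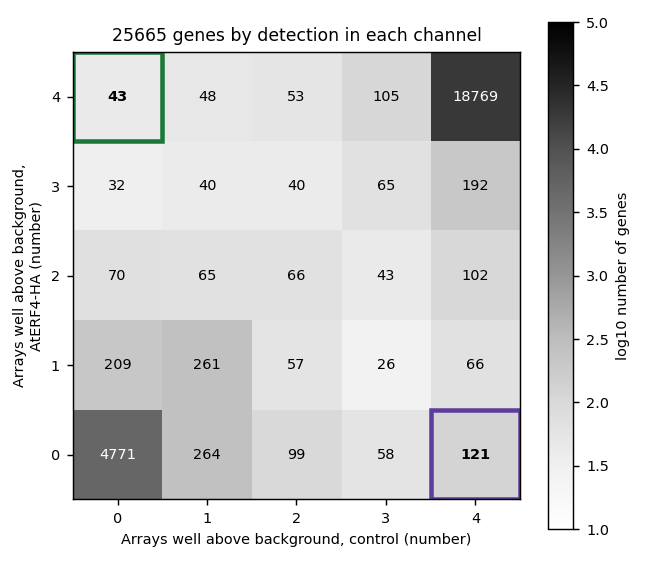
Genes by the number of arrays on which their signal was well above background in the AtERF4-HA channel (vertical axis) and in the control channel (horizontal axis); each cell gives the number of genes and its shade the log10 of that number. The green frame holds the 43 genes described here and the violet frame the 121 genes with the opposite pattern, while 18769 genes were detected everywhere and 4771 nowhere.

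Detection here is a threshold and not an absence of transcript. The scanner's other test, of whether a spot is positive and significantly above its local background, was passed in the AtERF4-HA channel on all 4 arrays by all 43 genes. In the control channel it was passed by every one of the 43 genes on some arrays, by 26 genes on 4 arrays, by 9 on 3 and by 8 on 2. Of the 5125 genes that were well above background in the control on no array, 1843 (36.0%) passed that test in the control on 2 or more arrays. When this test replaced the well-above-background flag, 8 genes were detected only in AtERF4-HA seedlings and 0 of them were among the 43.

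The signals were dim, over median local backgrounds of 58 to 60 scanner units. After subtraction of the background by the scanner, the AtERF4-HA signals of the 43 genes ran from 12.3 to 276.7 units over the 4 arrays, with a median of 34.0. Their control signals ran from -3.1 to 23.0 units, with a median of 7.75. In these units the dyes are not on the same scale: the array's median raw signal was 122 to 140 for green but 166 to 222 for red, so values are best read within a dye. In green, the median of the 43 genes was 23.3 and 25.4 units in AtERF4-HA (arrays 1 and 2) against 7.1 and 6.6 in control (arrays 3 and 4). In red, it was 48.6 and 48.2 units in AtERF4-HA (arrays 3 and 4) against 15.4 and 8.2 in control (arrays 1 and 2). Of the 172 pairs of a gene and an array, the control was at or above AtERF4-HA in 10, all of them on arrays 1 and 2, where the control was red. For 33 of the 43 genes every AtERF4-HA value was above every control value. The rule nearly requires such separation within a dye, and its share over all genes was not counted. Absence of overlap is therefore only described below.

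**Figure D2:**
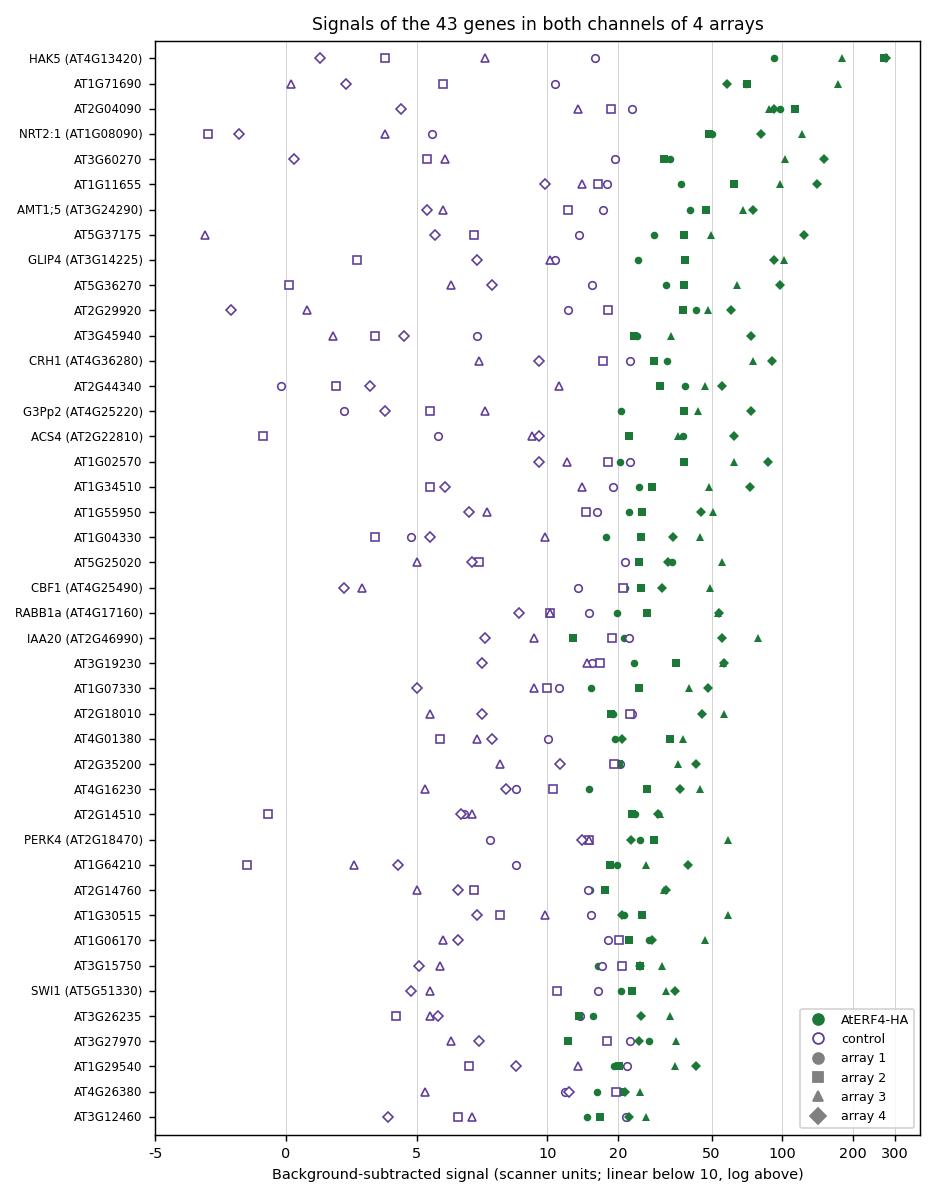
Background-subtracted signal of each of the 43 genes in scanner units (horizontal axis, linear below 10 and logarithmic above), with filled green symbols for AtERF4-HA and open violet symbols for control, and a symbol shape for each array. Genes are ordered by the lower bound of their fold change; HAK5 at the top reached 276.7 units, and in the lower part of the plot control symbols of arrays 1 and 2 (red dye) overlap AtERF4-HA symbols of the same arrays (green dye).

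The size of a difference between such signals depends on how background is removed. The design used limma's normexp correction with an offset of 50 added to every signal, which pulls the ratios of signals of this size towards 0. On arrays 1 and 3, 47 spot readings with a local background over 2 times the array's median, up to 50293.5 units, shifted the correction so far that a raw difference of 30 units became 166.1 and 468.6 in green and red on array 1, and 632.6 and 741 on array 3. On arrays 2 and 4 the same difference became 30.4 to 48.9. A second fit, chosen after these values were seen, replaced those local backgrounds by the array's median and gave 26.3 to 50.2 on all arrays. The median log2 ratio of the 43 genes on arrays 1 to 4 was 0.10, 0.43, 0.02 and 0.44 in the designed fit and 0.48, 0.43, 0.40 and 0.44 in the repaired fit. Ratios below are those of the repaired fit, with the designed fit named where it is used.

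**Figure D3:**
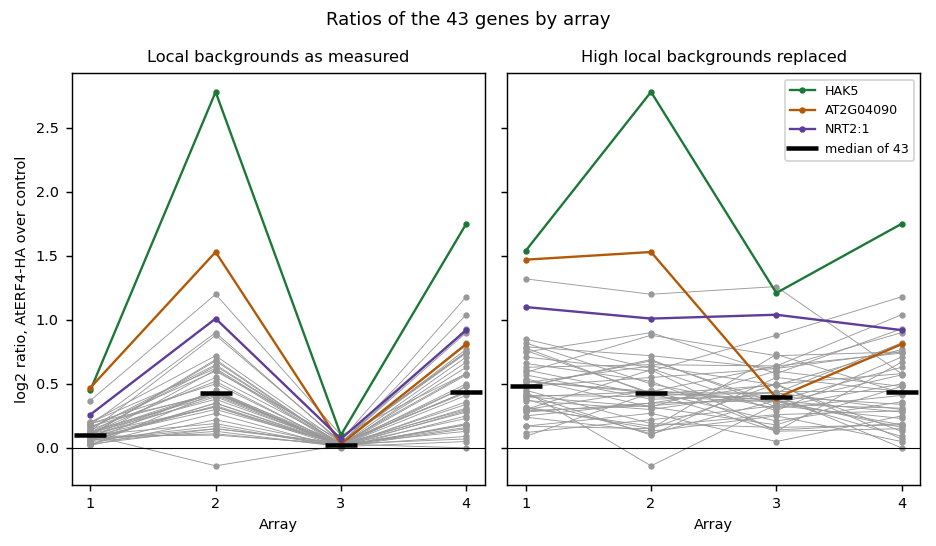
Log2 ratio of AtERF4-HA over control (vertical axis) for each of the 43 genes on each array (horizontal axis), with local backgrounds as measured (left) and with high local backgrounds replaced (right). Thin lines join the values of a gene and thick bars are medians, which were 0.10, 0.43, 0.02 and 0.44 on the left and 0.48, 0.43, 0.40 and 0.44 on the right.

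Because the flags that chose the 43 genes are read from the same signals as the ratios, their ratios are given as a description. The fitted log2 ratio ran from 0.17 to 1.82 with a median of 0.43, where the median over all 19497 genes fitted was -0.01, and 42 of the 43 were above 0 on all 4 arrays, as were 25.4% of all genes fitted. The exception was AT3G27970, at -0.14 on array 2. In the designed fit the median was 0.23 against 0.01. All 43 genes passed the filter on dim probes, as the rule requires. In the designed fit 0 of the 43 had a limma adjusted p under 0.05, 10 had an unadjusted p under 0.05, and 25.6% of all genes were called, 13.6% higher and 12.0% lower. In the repaired fit 39 were called higher, where 46.7% of all genes were called, 21.4% higher and 25.3% lower. The difference in counts between the fits belongs to the treatment of background, and nothing is read from them about the genes.

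For a gene that is below the detection level in the control on all arrays, the fold change was summarised by a value called here its lower bound. It was computed from the mean normalized log2 signal in AtERF4-HA and, in the control, from the higher of the gene's own signal and the lowest signal well above background on each array. Where the gene's own control signal was the higher on every array, the bound equals the fitted ratio, as for AMT1;5 (1.64-fold in both). The bound allows for no error between arrays and depends on the treatment of background. It ran from 1.11 to 3.3 over the 43 genes with a median of 1.32, and from 1.04 to 2.24 in the designed fit. From the scanner's processed signals, which carry no offset, it ran from 1.26 to 16.5 with a median of 2.41.

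HAK5 (AT4G13420) had signals of 92.3, 269.6, 179.8 and 276.7 units in AtERF4-HA and 16.0, 3.8, 7.6 and 1.3 in control on arrays 1 to 4. Every AtERF4-HA value was above every control value, and the lowest, on array 1, was in green. Its log2 ratios were 1.54, 2.78, 1.21 and 1.75, with a fitted value of 1.82 ± 0.20 (SE, n = 4 arrays), so the arrays agreed in sign and differed in size. HAK5 was at 1.27 ± 0.46 in the designed fit. Its lower bound was 3.3-fold, 2.24-fold in the designed fit and 16.5-fold from the processed signals. With the 5th percentile of the signals well above background as the floor, the value of the designed fit became 1.86-fold.

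The 12 other potassium transporters of the HAK/KUP/KT family were detected in both channels on all arrays. None was higher in the designed fit, 5 were lower and 7 did not pass, with a median of -0.12, where 13.6% of all genes were higher and 12.0% lower. The lowest was KUP10, whose log2 ratio fell by 0.82 ± 0.08 (SE, n = 4, limma adjusted p = 0.0049), followed by KUP11 at -0.49 ± 0.07 (limma adjusted p = 0.011). The families here and below were written down after the 43 genes were known. Of the 16 relatives of the 43 genes that passed in the designed fit, 6, 3, 16 and 14 still passed with array 1, 2, 3 or 4 left out, and of the 36 that passed in the repaired fit 32, 32, 35 and 31 did. All kept their direction.

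NRT2.1 (AT1G08090) had 50, 48.5, 120.8 and 81.4 units in AtERF4-HA and 5.6, -3.0, 3.8 and -1.8 in control. The groups did not overlap, and the ratios were close together, at 1.1, 1.01, 1.04 and 0.92. The fitted value was 1.02 ± 0.06 (SE, n = 4 arrays), with a lower bound of 1.86-fold, or 5.07-fold from the processed signals. NRT2.1 was at 0.57 ± 0.19 in the designed fit. Its partner NAR2.1, the small protein that NRT2.1 needs for transport, went the other way: its log2 ratio fell by 1.00 ± 0.10 in the designed fit (SE, n = 4, limma adjusted p = 0.0058). NRT2.7, a nitrate transporter of the seed vacuole, fell by 0.57 ± 0.08 (limma adjusted p = 0.013). NRT2.2, NRT2.3, NRT2.4 and NRT2.5 were not well above background on any array in either channel, and NRT2.6 had the opposite pattern to NRT2.1, with detection in control on all 4 arrays and in AtERF4-HA on none. NRT2.2 is a close copy of NRT2.1 next to it on the chromosome, and cross-hybridization between such copies was not tested.

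AMT1;5 (AT3G24290) had 40.6, 47.5, 67.8 and 74.8 units in AtERF4-HA and 17.2, 12.3, 6.0 and 5.4 in control. The values did not overlap, and the log2 ratios of 0.79, 0.72, 0.62 and 0.75 gave a fit of 0.72 ± 0.06 (SE, n = 4 arrays), with a lower bound of 1.64-fold. AMT1;5 was at 0.42 ± 0.15 in the designed fit. Its neighbour in the RefSeq gene order is AMT1;3, an ammonium transporter of the root epidermis, which was detected in both channels on all arrays. Cross-hybridization between AMT1;5 and the brighter AMT1;3 was not tested.

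AMT1;3 had 2197.0, 1751.0, 2382.5 and 3033.1 units in AtERF4-HA and 485.3, 374.5, 229.6 and 254.6 in control. It rose by 2.26 ± 0.20 on the log2 scale in the designed fit (4.78-fold, n = 4, limma adjusted p = 0.0043). AMT1;4 rose by 0.76 ± 0.19 (limma adjusted p = 0.044) and AMT2;1 fell by 0.74 ± 0.08 (limma adjusted p = 0.0059). AMT1;1 and AMT1;2 were at -0.12 and 0.12 and did not pass. Of the 5 other AMT genes, 2 rose, 1 fell and 2 did not pass, where 13.6% of all genes rose and 12.0% fell.

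G3Pp2 (AT4G25220), a glycerol-3-phosphate permease that RefSeq also lists as root hair specific 15, had 20.5, 38.1, 43.9 and 73.6 units in AtERF4-HA and 2.2, 5.5, 7.6 and 3.8 in control. All AtERF4-HA values were above all control values, and the ratios of 0.48, 0.69, 0.32 and 0.50 gave a fit of 0.50 ± 0.07 (SE, n = 4 arrays), with a lower bound of 1.41-fold. G3Pp2 was at 0.33 ± 0.13 in the designed fit. G3Pp1, the permease known for its induction by phosphate starvation, fell by 1.52 ± 0.06 in the designed fit (limma adjusted p = 0.0013). G3Pp4 and G3Pp5 were at 0.02 and 0.11 and did not pass, and G3Pp3 was detected on 1 array in each channel.

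RefSeq names 18 other root hair specific genes, of which 16 were kept for the fit. In the designed fit 1 of the 16 rose, 0 fell and 15 did not pass, with a median of 0.38, where 13.6% of all genes rose and 12.0% fell. In the repaired fit 12 rose, 1 fell and 3 did not pass, with a median of 0.49, where 21.4% of all genes rose and 25.3% fell. RHS16 was at 1.16 ± 0.12 (limma adjusted p = 0.00069 repaired, 0.058 designed) and RHS18 at 1.18 ± 0.17 (limma adjusted p = 0.0025 repaired, 0.077 designed). RHS8 was the gene that fell in the repaired fit, at -0.40 ± 0.05 (limma adjusted p = 0.0021). The summed processed signal of the 18 genes was 6469 to 9623 units in AtERF4-HA and 3597 to 5485 in control.

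ACS4 (AT2G22810), an ACC synthase that makes the precursor of ethylene and is induced by auxin, had 37.7, 22.3, 35.8 and 62.1 units in AtERF4-HA and 5.8, -0.9, 9.4 and 9.7 in control. The values did not overlap. Its ratios of 0.82, 0.50, 0.31 and 0.41 gave a fit of 0.51 ± 0.07 (SE, n = 4 arrays), with a lower bound of 1.38-fold. The other ACC synthases kept for the fit, ACS2, ACS6, ACS7 and ACS11, all had ratios below 0. None of these 4 passed in the designed fit, where 12.0% of all genes fell, and all 4 fell in the repaired fit, where 25.3% did.

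ACS7, a basal ACC synthase of seedlings, had 10.3, 13.4, 22.1 and 34.4 units in AtERF4-HA and 591.3, 240.2, 371.4 and 316.2 in control. Its log2 ratio was -2.24 ± 0.12 in the repaired fit (n = 4, limma adjusted p = 7.8e-05) and -1.36 ± 0.35 in the designed fit (limma adjusted p = 0.05, just above the threshold). ACS11 was at -1.50 ± 0.09 in the repaired fit (limma adjusted p = 0.00012). ACS5 was detected on 1 array in AtERF4-HA and on 0 in control, and was not kept for the fit. The ratios of ACS5 were 0.15, 0.27, 0.03 and 0.21 on arrays 1 to 4. ACS1, ACS8 and ACS9 were detected in neither channel.

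IAA20 (AT2G46990), an Aux/IAA protein that lacks the degron through which auxin destabilizes its relatives, had 21.2, 12.8, 78.6 and 55.6 units in AtERF4-HA and 22.3, 18.9, 9.5 and 7.6 in control. On arrays 1 and 2 the red control value was above the green AtERF4-HA value, and within each dye the genotypes did not overlap. The normalized ratios were 0.42, 0.10, 0.55 and 0.44, with a fit of 0.38 ± 0.07 (SE, n = 4 arrays). IAA30, of the same clade, was detected in both channels and was at 0.41 ± 0.07 in the repaired fit (limma adjusted p = 0.0048) and at 0.20 ± 0.07 in the designed fit (limma adjusted p = 0.11). IAA31, the clade's remaining gene, was detected on 3 arrays in AtERF4-HA and on 0 in control.

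SAUR10 (AT2G18010), named here by its RefSeq synonym and of the small auxin-upregulated RNA family, lay nearest of all to the detection level. It had 19.0, 18.6, 56.4 and 45.6 units in AtERF4-HA and 23.0, 22.4, 5.5 and 7.5 in control, where the red control level on arrays 1 and 2 was 23.1 and 22.4 units. Its ratios were 0.17, 0.15, 0.73 and 0.43, larger on the arrays where AtERF4-HA was red. The fit was 0.37 ± 0.07 (SE, n = 4 arrays).

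CBF1 (AT4G25490), a DREB1 factor that activates the cold regulon, had 21.4, 25.0, 49.0 and 30.7 units in AtERF4-HA and 13.5, 20.9, 2.9 and 2.2 in control. The lowest AtERF4-HA value, 21.4, was just above the highest control value, 20.9. Its ratios of 0.40, 0.32, 0.60 and 0.48 gave a fit of 0.45 ± 0.06 (SE, n = 4 arrays), with a lower bound of 1.33-fold. CBF1 was at 0.23 ± 0.10 in the designed fit. Its tandem copies CBF2 and CBF3 were detected in both channels and rose in the designed fit, CBF2 by 0.67 ± 0.16 (1.59-fold, limma adjusted p = 0.044) and CBF3 by 1.45 ± 0.10 (2.74-fold, limma adjusted p = 0.0027). All 3 copies had a normalized ratio above 0 on every array, while CBF4, DDF1 and DDF2 were detected in neither channel. Cross-hybridization between the 3 copies was not tested.

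**Figure D4:**
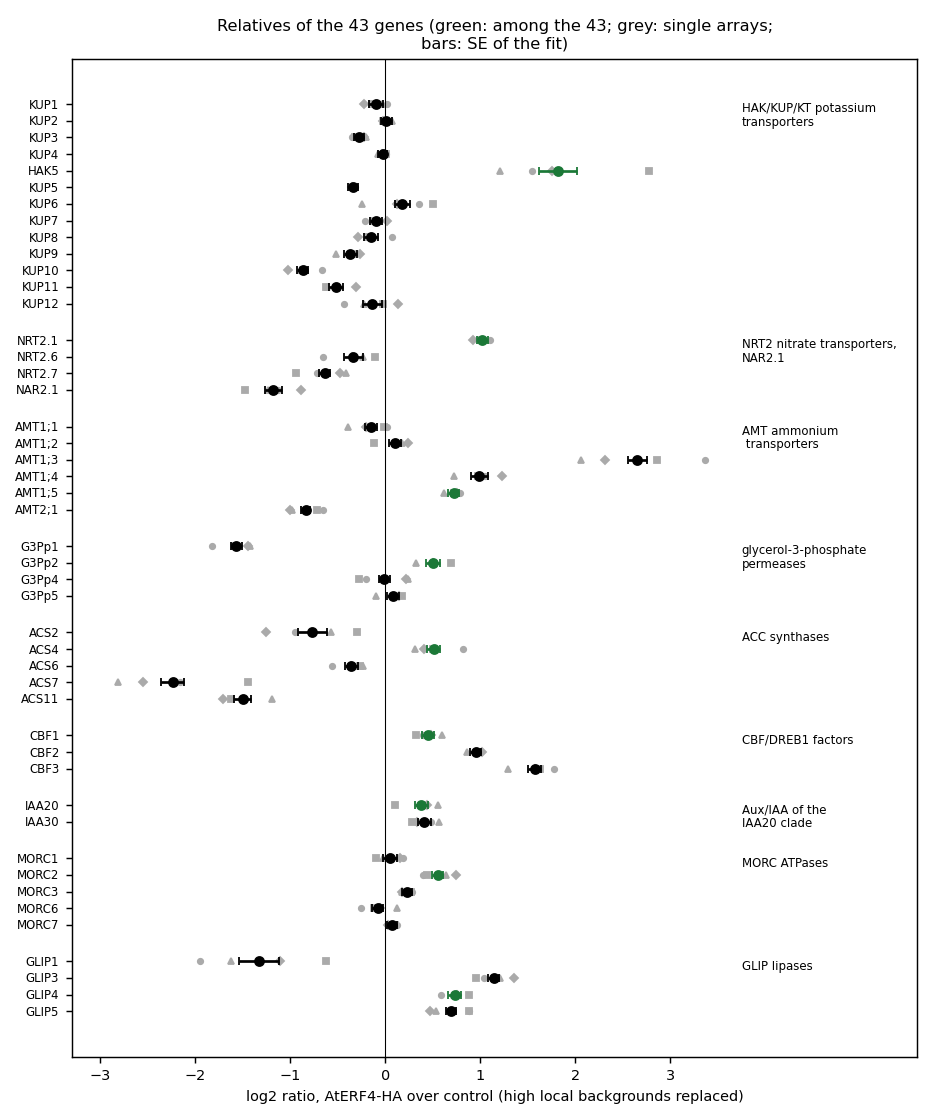
Log2 ratio of AtERF4-HA over control (horizontal axis, high local backgrounds replaced) for the genes of 9 families that hold a gene of the 43. Large points with bars are the fit and its SE over 4 arrays, green for genes of the 43 and black for their relatives, and small grey symbols are single arrays; HAK5 at 1.82 lies right of all its relatives, AMT1;3 at 2.65 and CBF3 at 1.57 lie right of AMT1;5 and CBF1, and NAR2.1 (-1.18), G3Pp1 (-1.57) and ACS7 (-2.24) lie on the opposite side from the gene of the 43 in their family.

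GLIP4 (AT3G14225), a GDSL-motif lipase, had 24.3, 38.4, 101.2 and 92.3 units in AtERF4-HA and 10.8, 2.7, 10.3 and 7.3 in control. The groups did not overlap, and the fit was 0.73 ± 0.07 (SE, n = 4 arrays), with a lower bound of 1.6-fold. GLIP4 was at 0.45 ± 0.17 in the designed fit. GLIP5 rose by 0.63 ± 0.06 in the designed fit (limma adjusted p = 0.0041) and GLIP1, a lipase of pathogen defence, fell by 0.66 ± 0.16 (limma adjusted p = 0.043). GLIP3 was at 0.76 ± 0.20 and did not pass there (limma adjusted p = 0.054), and passed in the repaired fit at 1.14 ± 0.06 (limma adjusted p = 6.6e-05).

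CRH1 (AT4G36280), also named MORC2, is an ATPase of the microrchidia family, whose members act in gene silencing and pathogen resistance. It had 32.2, 28.5, 74.9 and 90.6 units in AtERF4-HA and 22.5, 17.3, 7.4 and 9.7 in control. Its ratios of 0.40, 0.44, 0.64 and 0.74 gave a fit of 0.55 ± 0.06 (SE, n = 4 arrays), with a lower bound of 1.47-fold. CRH1 was at 0.33 ± 0.14 in the designed fit. The genes on either side of it belong to the same family. MORC1 was at 0.09 ± 0.07 in the designed fit (limma adjusted p = 0.35) and MORC3 at 0.13 ± 0.06 (limma adjusted p = 0.18), and MORC3 passed in the repaired fit at 0.23 ± 0.05 (limma adjusted p = 0.017).

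The remaining genes with a name in RefSeq are named here for their symbols, after their values were seen. RABB1a (AT4G17160), a small GTPase of the Rab family of membrane traffic, was at 0.39 ± 0.06 (SE, n = 4 arrays). SWI1 (AT5G51330), also DYAD, which is needed for meiosis, was at 0.24 ± 0.07, with signals of 20.6 to 35.0 units in AtERF4-HA and 4.8 to 16.5 in control. PERK4 (AT2G18470), a proline-rich extensin-like receptor kinase, was at 0.34 ± 0.08, and on array 4 its ratio was 0.00.

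The other 30 genes carry only a locus identifier or clone names in RefSeq and no role is given for them here. AT2G04090 had 98.0, 113.2, 87.5 and 91.9 units in AtERF4-HA and 22.9, 18.7, 13.5 and 4.4 in control. Its ratios of 1.47, 1.53, 0.39 and 0.81 were larger on the arrays where AtERF4-HA was green, and the fit was 1.05 ± 0.08 (SE, n = 4 arrays), with a lower bound of 2.07-fold. These ratios had an SD of 0.55, and the SE leaves out the difference between dyes. AT1G71690 had 69.9, 70.8, 172.0 and 57.9 units in AtERF4-HA against 0.2 to 10.8 in control. The fit was 1.09 ± 0.11, with a lower bound of 2.09-fold.

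AT3G60270 followed at 0.84 ± 0.07 and AT1G11655 at 0.79 ± 0.08 (SE, n = 4 arrays). In AtERF4-HA, AT3G60270 had 33.4 and 31.3 units in green and 102.1 and 149.6 in red, and AT1G11655 had 37.2 and 62.5 in green and 97.5 and 140.4 in red. For both, the AtERF4-HA signals did not overlap those of the control, which were 0.3 to 19.4 and 9.9 to 17.9 units. Of the 43 genes, 41 are protein coding and 2 are pseudogenes. The pseudogene AT5G37175 was at 0.74 ± 0.08, with 28.5 to 123.0 units in AtERF4-HA and -3.1 to 13.6 in control. The transcribed pseudogene AT5G36270 was at 0.64 ± 0.07, with 32.1 to 97.9 units in AtERF4-HA and 0.1 to 15.5 in control.

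AT2G29920, AT3G45940 and AT2G44340 formed a further tier, at 0.61 ± 0.09, 0.61 ± 0.09 and 0.62 ± 0.09 (SE, n = 4 arrays). Their AtERF4-HA signals ran from 37.8 to 60.6, from 23.3 to 73.2 and from 30.1 to 55.2 units, without overlap with the control. AT1G04330 was at 0.52 ± 0.07, AT1G02570 at 0.44 ± 0.07, AT1G34510 at 0.43 ± 0.10 and AT3G19230 at 0.38 ± 0.06. For AT1G02570 the control on array 1 (22.5 units, red) was above AtERF4-HA on that array (20.3 units, green). The 16 genes of the 43 that are not named here lay between 0.17 and 0.44.

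The members at the edge of the rule differed little from genes just outside it. The 3 nearest inside were SAUR10, PERK4 and AT3G27970, the last with 27.0, 12.3, 35.1 and 24.6 units in AtERF4-HA and 22.5, 17.9, 6.3 and 7.4 in control. The 3 nearest outside were AT5G47000, AT2G17050 and AT1G33770. AT5G47000 had 26.0, 44.6, 37.2 and 19.5 units in AtERF4-HA and 15, 2.0, -0.4 and 3.0 in control, and missed the level on array 4 of AtERF4-HA alone. AT2G17050 and AT1G33770 passed it in the control on array 1 alone, at 23.3 and 23.5 units where the level was 23.1. Their fitted ratios were 0.37 ± 0.07 and 0.46 ± 0.06, within the range of the 43.

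The 43 genes were spread over the genome. By locus 12 lay on chromosome 1, 10 on 2, 9 on 3, 8 on 4 and 4 on 5, the last being 9.3% of them where chromosome 5 holds 23.4% of the genes on the array. No pair of them lay within 5 places of each other in the RefSeq gene order. Of 57 immediate neighbours on the array, 40 were kept for the fit, of which 5 rose and 3 fell in the designed fit (13.6% and 12.0% of all genes) and 12 rose and 6 fell in the repaired fit (21.4% and 25.3% of all genes). The median gene length was 1491 bases for the 43 genes and 2174 for all genes on the array. No test was made of the chromosome or length figures.

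The 8 gene lists written for the seedlings' tissues and responses, 96 genes in all, held 0 of the 43, which are 0.168% of all genes. Over all genes fitted, 13.6% rose and 12.0% fell in the designed fit, and 21.4% and 25.3% in the repaired fit. In the designed fit, CC-type glutaredoxins had 1 gene that rose and 6 that fell of 17, ZIP and IRT metal transporters 2 and 4 of 13, and salicylate response genes 3 and 6 of 17. Of the leaf markers 3 rose and 0 fell of 7, LHCA1 by 1.03 and CA1 by 0.93. Of the root markers 2 rose and 1 fell of 10. COBL9 of root hairs rose by 0.43 and CASP1 of the endodermis by 0.47, and SCR was at -0.31 ± 0.07 (limma adjusted p = 0.041). Flower markers had 0 that rose and 2 that fell of 3, seed markers 0 and 0 of 1, and pollen markers 0 and 1 of 1. In the repaired fit 7 of the 10 root markers rose and 1 fell, SCR at -0.34 ± 0.06 (limma adjusted p = 0.0071).

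Summed processed signals were 805254 to 944726 units in AtERF4-HA and 641975 to 796928 in control for the leaf markers, and 59505 to 98020 against 68474 to 89291 for the root markers. The root sums mostly reflect PYK10, which had 30358.9 to 70650.3 units above background, where no other root marker exceeded 9506.5. PYK10 was at 0.06 ± 0.07 in the repaired fit, so these sums say little of the other root markers. The sums were 314 to 681 against 1324 to 2775 for the flower markers, 89 to 110 against 153 to 322 for the seed markers and 3608 to 4010 against 4466 to 5513 for the pollen markers. The pollen sums mostly reflect TUA1, at 1525.3 to 6891.1 units above background. Flower sums in control mostly reflect PI (774.6 to 2220.2 units above background) and SEP3 (299.0 to 518.5), where no other flower marker exceeded 98.1. SEP1 was at 0.08 ± 0.15 in the repaired fit. The seed sums come from dim signals, and EM6 was the only seed marker kept for the fit. AP1, AG and LFY of the flower, 7 of the 10 seed markers and VGDH1 and PTEN1 of pollen were detected in neither channel. Whether the share of a tissue in the seedlings has a part in the ratios of HAK5, NRT2.1, AMT1;5 or G3Pp2 was not tested, and in whole seedlings more cells of a type and more RNA per cell cannot be told apart.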

How the data were processed

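RNA of 14-day-old seedlings was hybridised to 4 2-colour Agilent arrays, all on 1 slide and in 1 scan per the file headers, so no batch could be tested, and the number of arrays limits the precision. The authors' deposited scanner files hold spot intensity per dye and flags, which the submitters' processing notes credit to version 9.1.3.1 of Agilent Feature Extraction. The authors' deposited value table holds natural log ratios, as a slope of 0.6931 in size against log2 red over green of the scanner's processed signals shows. On every array it followed those processed signals with a correlation of 1 in size and a constant shift of -0.0776. The value table is thus no measurement apart from the processed signals. Its columns are not centred (medians -0.219, -0.0454, -0.139 and -0.0773), and the origin of the shift is not given in the sources used. The flags, which the authors deposited with the intensities, are the scanner's own calls.

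For this report, median signals were corrected with normexp (offset 50), normalized by loess within arrays with control spots at weight 0, and fitted in limma 3.58.1 (R 4.3.3) to genotype and dye, with Benjamini-Hochberg adjustment over 19497 genes. Spots flagged as outliers were left out. A gene's probe was its brightest. A gene stayed in the fit when either channel was flagged on all 4 arrays. The repaired fit is the same with 47 high local backgrounds replaced. The fit was run on simulated ratios with independent noise and known changes. Those ratios go through no background correction, so the run cannot test that step or signals near background. Lower bounds used loess and Aquantile normalization.

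The named genes were the 15 with the largest lower bound, the 5 next brightest in AtERF4-HA, the 3 nearest inside and outside the detection level, and ERF4; others are named for their RefSeq symbol or family. The 43 genes and all lists were chosen with earlier results of these data known. RefSeq's gene table (TAIR10.1) held all 43 genes and 25449 of the 25665 genes; it gave names and gene order. No source used here names the array's build, and coordinates are left out. Promoter sequences were not used here.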

Additional observations from a re-analysis of the deposited data

Results flagged for a closer look

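Of 46 sets of 4 array values examined, 3 had a value that stood far from the other three, and chance alone gives about 1 in 20. The log2 ratio of AT1G71690 on array 4 was 0.58, below 1.2 to 1.32 on the other arrays, a gap of 0.831 of its range. The log2 ratio of AT5G37175 on array 4 was 1.04, above 0.63 to 0.65 on the others, a gap of 0.962 of its range. The log2 ratio of SWI1 on array 1 was 0.45, above 0.16 to 0.19 on the others, a gap of 0.909 of its range.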

How the results depend on the processing

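ERF4 kept its direction and its side of the threshold under all alternatives, at 0.87 to 1.15. The count of 43 genes became 163 when 3 of 4 flags in AtERF4-HA and at most 1 in control were asked and 8 under the scanner's test for positive and significant spots; with an array left out it ran from 49 to 122. Genes of the 43 past the threshold, 0 in the designed fit (limma; 10 at an unadjusted p under 0.05), numbered 41 without background correction, 43 from the processed signals, 12 with median centring, 39 with high local backgrounds replaced and 43 from the authors' value table, ran from 0 to 26 with an array left out (26 without array 3) and were 33, 36, 35 and 38 after the repair without array 1, 2, 3 or 4. Their median log2 ratio of 0.23 moved to 2.13 from the processed signals and 2.24 from the value table, neither of which adds an offset to the signals. The value table is those processed signals with a constant shift, so it is not an independent setting. With an array left out the median ran from 0.15 to 0.34, and from 0.39 to 0.44 after the repair. The 30 genes of the 8 lists past the threshold became 48 without background correction, 49 from the processed signals, 49 after the repair and 49 from the value table, 6 to 47 with an array left out and 48 to 51 with an array left out after the repair. The lower bound for HAK5, 2.24, became 1.86 with the 5th percentile as the floor, 3.3 after the repair and 16.5 from the processed signals. It ran from 1.67 to 2.86 with an array left out. All-gene counts moved as well, from 2653 higher and 2330 lower to 4169 and 4940 after the repair, 5050 and 3926 from the processed signals, 3037 and 1770 with median centring, 7891 and 3064 from the value table and 4194 and 4924 without background correction; leaving out array 1 or 2 left 257 and 428 or 227 and 432. Median centring moved the median of all genes to 0.107. That median was 0.044 from the processed signals and 0.156 from the value table, which differs from them by its constant shift. Of 720 values of single genes under alternatives, 560 moved by less than the spread over arrays, 160 by more, and 0 were below zero. These genes were the 43 with AT2G17050 and AT1G33770 from just outside the rule. The rule nearly fixes the sign of the 43, so nothing is read from the count below zero. The cause of these moves was not tested beyond the effect of high local backgrounds given in the report. Signal over background is the limit for these genes. Each log ratio sets both genotypes of a replicate against each other on their shared array, so the fit is already paired by replicate and no further block was added. The count of promoter motifs was not run.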
